A study of Homo sapiens with 8 samples.

Results

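The genes described here are the forkhead (FOX) and SOX transcription factors, taken by symbol as autosomal protein-coding genes named FOX with a letter from A to S and a number, or SOX with a number. The rule gave 60 genes, 42 FOX and 18 SOX, of 19229 autosomal protein-coding genes in GENCODE release 44 in GRCh37 coordinates. A further 4 genes with such symbols lie on the X chromosome and were left out.

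FOX proteins bind DNA through a winged helix domain and SOX proteins through an HMG box, and members of both families set up cell identity in the embryo. In the neural crest, from which the sympathetic nervous system and neuroblastoma (NB) derive, *FOXD3*, *SOX9* and *SOX10* act in specification and in the choice between glial and neuronal fates, and *SOX11* and *SOX4* act in sympathetic neuron precursors. DNA methylation in mammals falls mainly on the cytosine of CpG dinucleotides, and promoters of developmental regulators commonly lie in CpG islands, which are CpG-rich stretches that stay unmethylated in most normal cells but can gain methylation in tumor cells and in culture.

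MBD-seq, in which sheared DNA is captured by the methyl-CpG-binding domain of MBD2 and sequenced, was done on genomic DNA of 8 NB cell lines, established cultures of tumor cells, with no treatment named in the labels. The labels give *MYCN* amplification (MNA) for IMR-32, CHP-902R, N206 and LAN-2, and no amplification (*MYCN* single copy) for SK-N-AS, SJNB-1, SH-SY5Y and CLB-GA. Each line is 1 library with 1 list of peaks, regions where captured reads pile up, so the 4 lines of a *MYCN* group stand as its replicates and there was no repeat of any line. The lists held 88496 to 112412 peaks in the MNA lines and 70816 to 86079 in the single copy lines, and gave no read counts. The depth of each line is not in the lists, and a gene without a peak is a gene where none was called, not one shown to be unmethylated. The score of a peak, written by the peak caller, rises as its p-value falls and began at 50 in each list. As a check of the labels, 8.68% to 19.8% of the bases within 1 Mb of *MYCN* were under a peak in the MNA lines (14.1% in CHP-902R), against 1.87% to 4.76% in the single copy lines.

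A promoter was the stretch from −1500 to +1000 bp around each transcriptional start site (TSS) annotated for the gene, and a peak counted when it overlapped the promoter by 1 bp or more. The CpG class of a gene was taken from the window of its canonical TSS alone, whereas promoter peaks were counted at any of its TSS. By that class, 53 of the 60 genes had a CpG-rich promoter and 6 an intermediate one (*FOXH1*, *FOXI1*, *FOXP2*, *FOXS1*, *SOX5* and *SOX6*). The remaining 1 had a CpG-poor promoter (*FOXN1*). Genes of a single exon made up 20 of the 60. IMR-32 stood apart from the other lines in most counts that follow, so the mean count of MNA lines is also given without it.

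Promoter peaks were found on 32 of the 60 genes in IMR-32 and on 15 to 21 in each of the other lines. The MNA mean was 20 ± 8.04 genes with IMR-32 and 16 without it, and the single copy mean was 17.5 ± 2.52 (SD, n = 4 each). As a share of the 60 genes, IMR-32 had 53.3%, above the 42.5% of all autosomal genes with a promoter peak in that line. The other lines lay below their own background. N206 had 28.3% against 37.4%, CHP-902R 25.0% against 38.3%, and LAN-2 26.7% against 40.6%. SK-N-AS had 28.3% against 34.7%, SJNB-1 25.0% against 34.4%, SH-SY5Y 35.0% against 39.4% and CLB-GA 28.3% against 36.7%. The position of the other 7 lines relative to all genes moved with the set of TSS. FOX and SOX genes had a median of 2 TSS and all genes a median of 5. With only the canonical TSS, the share was 40.0% in IMR-32 against 21.8% of all genes, whereas the other 7 lines had 11.7% to 25.0% against 14.5% to 18.1%, and 4 of them were then above their background.

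**Figure D1:**
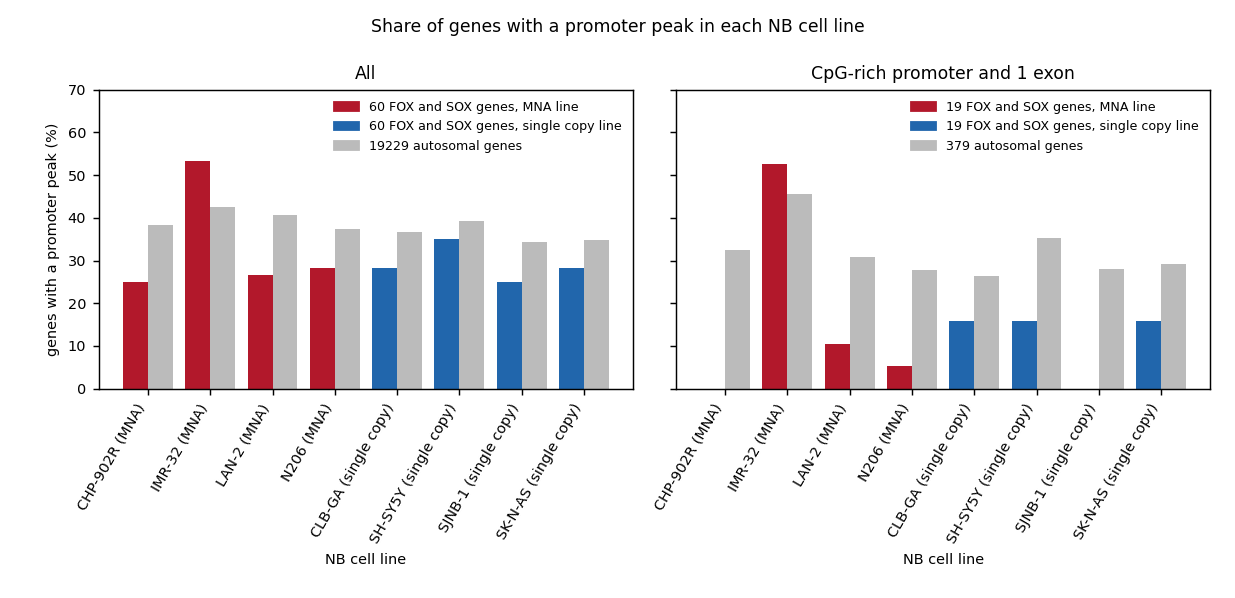
Bars give the share of genes with a promoter peak (y axis, %) in each NB cell line (x axis), for FOX and SOX genes (red in MNA, blue in single copy lines) and for all autosomal protein-coding genes (gray). IMR-32 is the only line in which the FOX and SOX share, 53.3% on the left and 52.6% on the right, is above the gray bar, and in the right panel CHP-902R and SJNB-1 are at 0.

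Among the 42 FOX genes, 24 had a promoter peak in IMR-32 (57.1%, against 42.5% of all genes) and 10 to 15 in the other lines. Among the 18 SOX genes, 8 had one in IMR-32 (44.4%, against the same 42.5%) and 3 to 7 elsewhere, with 38.9% in SK-N-AS against 34.7% of all genes. Among the 60 were 19 genes of 1 exon with a CpG-rich promoter. In IMR-32, 10 of these had a promoter peak (52.6%, against 45.6% of the 379 autosomal genes of the same kind), and in the other lines 0 to 3 had one (0% to 15.8%, against 26.4% to 35.4%). Over the coding sequence of the 20 FOX and SOX genes of 1 exon, 25.7% of bases were under a peak in IMR-32, none in SJNB-1, and 2.04% to 14.5% in the remaining 6 lines. For the 379 single-exon genes with a CpG-rich promoter, the coding share was 31.6% in IMR-32 and 16.4% to 23.1% in the others.

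The difference between IMR-32 and the other lines was large at the start of the gene. Over the 53 FOX and SOX genes with a CpG-rich promoter, 17.9% of the bases within 250 bp of the canonical TSS were under a peak in IMR-32, against 1.11% to 7.59% in the other 7 lines. From 250 to 1000 bp downstream the share was 23.2% in IMR-32 and 4.42% to 8.54% in the others. For all 12803 genes with a CpG-rich promoter the same 2 zones had 4.64% and 6.33% in IMR-32. The others had 1.77% to 4.09% and 2.60% to 3.92%, so IMR-32 was highest there too, by a smaller margin. From 250 to 1000 bp the FOX and SOX share was above that of all such genes in every line, with 8.54% against 2.60% in CLB-GA. Within 250 bp it was above in every line except LAN-2 (3.60% against 4.09%) and SK-N-AS (1.11% against 1.77%), with 7.59% against 2.11% in CLB-GA. IMR-32 also had the widest peaks of the 8 lists, 646 bp on average against 514 to 618 bp. The share of its autosomal peaks with at least 8 CpG per 100 bp was 1.21%, inside the range of the other lists (0.756% to 1.37%). With each list cut to its top 70816 peaks by score, IMR-32 had 28 of the 60 genes with a promoter peak and the other lines 11 to 18. With a score of at least 100 it had 11 and the others 2 to 8, and N206 (10% of the 60 genes against 8.83% of all genes) and SK-N-AS (8.33% against 5.76%) were then above their background too. The part of peak width and of sequencing depth in the IMR-32 excess was not tested.

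**Figure D2:**
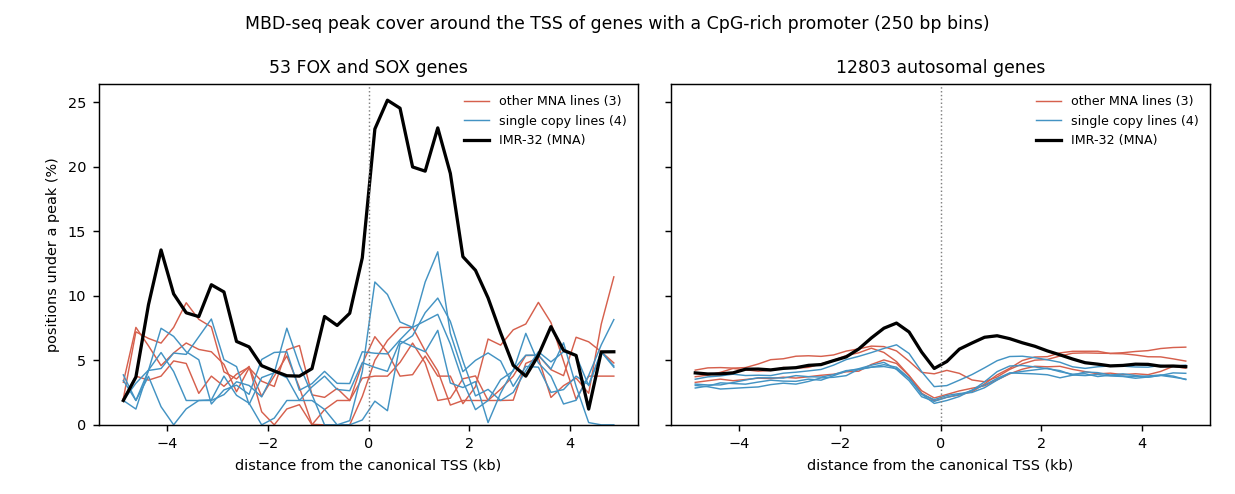
Lines give the percentage of positions under a peak (y axis) in 250 bp bins by distance from the canonical TSS in kb (x axis), for 53 FOX and SOX genes (left) and 12803 autosomal genes (right) with a CpG-rich promoter. On the left the black IMR-32 line rises just after the TSS above every other line, and on the right the lines dip near the TSS.

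A promoter peak was called in IMR-32 and in no other line for 11 of the 60 genes, 18.3%, against 2.92% of all autosomal genes. They included *FOXC2*, *FOXD3*, *FOXE1*, *FOXF2*, *FOXL2*, *FOXO3*, *FOXP2*, *FOXQ1*, *SOX17* and *SOX21*. Of the 11, 10 had a CpG-rich promoter, 18.9% of the 53 such FOX and SOX genes against 3.19% of all genes with a CpG-rich promoter. Of the 19 FOX and SOX genes with a CpG-rich promoter and a single exon, 7 were among the 11. That was 36.8%, against 8.97% of the 379 autosomal genes of the same kind. No other line had more than 3 such genes, the 3 of SK-N-AS being *FOXD2*, *FOXI3* and *SOX4*. CHP-902R had *SOX5* alone, LAN-2 *FOXK1*, CLB-GA *FOXO1* and SH-SY5Y *FOXF1*, while N206 and SJNB-1 had none. Several of the IMR-32 genes are textbook regulators of cell fate: *FOXD3* keeps neural crest progenitors, *FOXE1* acts in the thyroid, *FOXL2* in the ovary, *SOX17* in endoderm and endothelium, and *SOX21* in neural progenitors.

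These 11 genes carried 12 promoter peaks in IMR-32. Their scores ran from 52.2 to 234 with a median of 88.4, at the 5.85th to 99.4th percentile of the IMR-32 list, so that they included both weak and strong peaks. Their CpG density was 6.97 to 13.1 per 100 bp, where the autosomes average 0.997, and 9 of the 12 reached coding sequence. *FOXO3*, a forkhead factor held out of the nucleus by AKT signaling, had the strongest, with a score of 234 at 389 to 1715 bp from the TSS. *FOXF2* followed with 138 at 518 to 1646 bp. *FOXD3* had one of the weakest, with 56.1 at 36 to 984 bp. For 8 of the 12 peaks no other line had a peak that overlapped, and at *FOXQ1* the nearest peak of another line was 19211 bp away.

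The other 4 were overlapped by peaks of other lines that lay just past the promoter limit. *FOXE1* had coding peaks in CLB-GA and SK-N-AS, which began 1344 and 1088 bp from the TSS. *SOX17* had coding peaks in SH-SY5Y and SK-N-AS from 1309 and 1128 bp. *FOXO3* had peaks in the same lines from 1140 and 1153 bp, with no coding base under them. In *FOXE1*, *SOX17* and *FOXO3*, IMR-32 was the line whose peak reached into the promoter, and not the only line with a peak there. Of the 45 bp windows in the canonical promoter of *FOXO3*, 82.5% occur once in GRCh37 and the rest also occur elsewhere. For the whole set of 60 the median was 99.8%.

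The sequences below show what lay under IMR-32 peaks at a neural crest factor (*FOXD3*), a neural progenitor factor (*SOX21*) and a promoter upstream of the TSS (*FOXQ1*). They are the stretches of at most 300 bases with the most CpG in the coding or upstream part of the peak. All are read 5′ to 3′ on the strand of the gene in GRCh37, with CpG in capitals. The *FOXD3* stretch is chr1:63788811-63789110 on the plus strand, bases 82 to 381 of the coding sequence, with 45 CpG. The *SOX21* stretch is chr13:95364092-95364303 on the minus strand, the first 212 bases of the coding sequence, with 20 CpG. The *FOXQ1* stretch is chr6:1311868-1312167 on the plus strand, upstream of the TSS, with 34 CpG.
FOXD3: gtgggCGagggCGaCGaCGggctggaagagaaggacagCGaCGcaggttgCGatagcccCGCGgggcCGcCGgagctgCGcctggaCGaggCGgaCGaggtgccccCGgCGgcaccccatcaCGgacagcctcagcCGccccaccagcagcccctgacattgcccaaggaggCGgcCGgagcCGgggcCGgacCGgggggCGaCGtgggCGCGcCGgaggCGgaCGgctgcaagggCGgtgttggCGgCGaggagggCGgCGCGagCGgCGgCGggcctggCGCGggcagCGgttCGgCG
SOX21: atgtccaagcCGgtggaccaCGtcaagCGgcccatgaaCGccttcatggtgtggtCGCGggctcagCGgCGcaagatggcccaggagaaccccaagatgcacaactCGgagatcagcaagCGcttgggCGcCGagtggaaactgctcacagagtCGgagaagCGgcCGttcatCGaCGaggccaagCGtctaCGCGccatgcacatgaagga
FOXQ1: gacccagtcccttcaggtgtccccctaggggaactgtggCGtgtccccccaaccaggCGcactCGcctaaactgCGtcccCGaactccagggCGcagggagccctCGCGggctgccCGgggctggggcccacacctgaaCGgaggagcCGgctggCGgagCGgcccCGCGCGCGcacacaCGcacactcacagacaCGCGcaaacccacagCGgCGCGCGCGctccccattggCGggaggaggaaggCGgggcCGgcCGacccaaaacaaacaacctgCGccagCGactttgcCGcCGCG
The *FOXD3* stretch holds 15 CpG per 100 bp, *FOXQ1* 11.3 and *SOX21* 9.43, all well above the autosomal average.

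Over the 8 lines, 11 of the 60 genes had no promoter peak (18.3%, against 24.8% of all genes) and 18 had one in 1 line (30%, against 12.8%). Another 9 had one in 2 lines, 3 in 3 lines, 5 in 4, 5 in 5, 4 in 6, 4 in 7 and 1 in all 8. A peak in at least 7 lines was found for 8.33% of the 60 genes, against 14.0% of all genes. The genes with none were *FOXA1*, *FOXA3*, *FOXC1*, *FOXD1*, *FOXO6*, *SOX1*, *SOX8*, *SOX9*, *SOX11*, *SOX12* and *SOX14*. *FOXC1*, *SOX1*, *SOX11* and *SOX14* had no peak in the gene body either, in any line. Those in 2 lines were *FOXA2*, *FOXB2*, *FOXH1*, *FOXI2*, *FOXJ1*, *FOXL1*, *FOXL3*, *SOX2* and *SOX7*. *FOXB1*, *FOXE3* and *FOXN2* had a peak in 3 lines, *FOXD4*, *FOXP4*, *FOXR1*, *SOX6* and *SOX18* in 4, and *FOXJ2*, *FOXJ3*, *FOXN1*, *SOX13* and *SOX15* in 5. *FOXI1*, *FOXK2*, *FOXN4* and *FOXS1* had one in 6 lines, *FOXM1*, *FOXN3*, *FOXP1* and *SOX10* in 7, and *SOX30* in all 8 (1.67% of the 60 genes, against 6.4% of all genes).

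**Figure D3:**
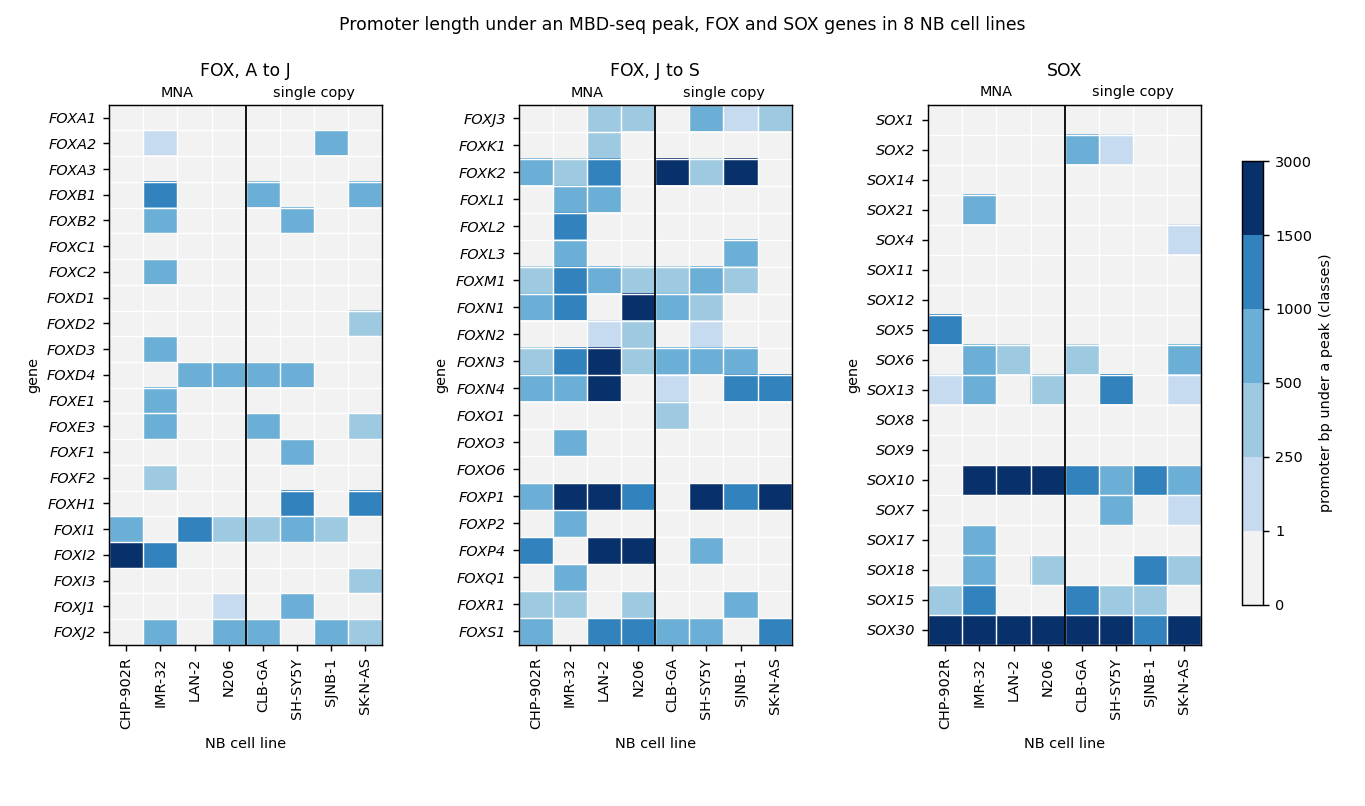
Each cell gives the promoter length under a peak, in bp and in 6 classes (color scale), for the genes drawn (rows) in an NB cell line (columns, MNA to the left of the black line). The row of *SOX30* is filled in every line, and the IMR-32 column holds the most filled cells.

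*SOX30*, a factor of male germ cell development, had the most promoter under peaks. The covered length was 2632 bp in IMR-32, 2398 in CHP-902R, 1568 in N206 and 1984 in LAN-2, and 2984 in SH-SY5Y, 1954 in SK-N-AS, 1568 in CLB-GA and 1306 in SJNB-1. The *MYCN* groups overlapped, with 2146 ± 469 bp in MNA and 1953 ± 737 bp in single copy lines (SD, n = 4 each, exact permutation p = 0.657). At the canonical TSS, 589 bp from 357 to 945 bp downstream were under a peak in all 8 lines, with 54 CpG, 586 bp of them coding. A second region near another *SOX30* TSS, chr5:157098557-157098946, was under a peak in 7 lines, all but SJNB-1, and lies beside a TSS of *C5orf52*, so that its peaks cannot be assigned to either gene.

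*SOX9* and *SOX10*, the SOXE factors of the neural crest and its glia, differed in where their peaks lay. *SOX10* had a promoter peak in 7 lines, with 2992 bp in IMR-32, 0 in CHP-902R, 1792 in N206 and 1558 in LAN-2, and 608 in SH-SY5Y, 902 in SK-N-AS, 1407 in CLB-GA and 1099 in SJNB-1 of promoter covered. CHP-902R had no peak anywhere in *SOX10*, though 128 peaks were called there within 2 Mb on either side, against 140 to 248 in the other lines. The means were 1586 ± 1230 bp in MNA and 1004 ± 336 bp in single copy lines (SD, n = 4 each, exact permutation p = 0.429, adjusted p = 1). Without IMR-32 the MNA mean was 1117 bp (exact permutation p = 0.8286). Without CHP-902R it was 2114 bp and the same exact permutation test gave p = 0.0286, the smallest that 3 lines against 4 allow. The peak of SK-N-AS lay 6394 to 7295 bp from the canonical TSS, at another TSS. The remaining 6 lines shared 608 bp from 864 to 1471 bp downstream, with 59 CpG, across coding and intron sequence. The promoter also holds a TSS of *POLR2F*.

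*SOX9* had no promoter peak in any line, but a peak within the gene body in all 8. The peaks began 1556 to 2669 bp from the TSS and covered 1798 bp in IMR-32, 1266 in CHP-902R, 1579 in N206 and 2175 in LAN-2, and 1515 in SH-SY5Y, 1240 in SK-N-AS, 1181 in CLB-GA and 813 in SJNB-1. The highest score per line ran from 97.2 in SK-N-AS to 261 in LAN-2. Gene body cover was 1705 ± 382 bp in MNA and 1187 ± 289 bp in single copy lines (SD, n = 4 each), which overlapped (exact permutation p = 0.0571, adjusted p = 1). *SOX8*, the other SOXE gene, had no promoter peak and gene body peaks in SJNB-1, SH-SY5Y, CLB-GA and N206, each with coding sequence under it.

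The sequences at these recurrent regions are shown because every line, or 6 of the lines in the case of *SOX10*, had a peak over the whole of the printed stretch. All are coding, with CpG in capitals and each read 5′ to 3′ on the strand of the gene in GRCh37. *SOX30* is chr5:157078770-157079069 on the minus strand, with 34 CpG. *SOX9* is the whole stretch chr17:70119830-70120065 on the plus strand, bases 832 to 1067 of 1527 coding bases, with 26 CpG. *SOX10* is chr22:38379394-38379693 on the minus strand, bases 99 to 398 of 1398 coding bases, with 36 CpG.
SOX30: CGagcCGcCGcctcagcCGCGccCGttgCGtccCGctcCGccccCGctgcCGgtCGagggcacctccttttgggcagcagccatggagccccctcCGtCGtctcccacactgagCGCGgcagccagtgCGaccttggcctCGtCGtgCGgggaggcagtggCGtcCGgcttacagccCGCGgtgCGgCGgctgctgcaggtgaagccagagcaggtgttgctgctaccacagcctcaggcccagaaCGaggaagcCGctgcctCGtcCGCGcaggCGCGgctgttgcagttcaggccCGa
SOX9: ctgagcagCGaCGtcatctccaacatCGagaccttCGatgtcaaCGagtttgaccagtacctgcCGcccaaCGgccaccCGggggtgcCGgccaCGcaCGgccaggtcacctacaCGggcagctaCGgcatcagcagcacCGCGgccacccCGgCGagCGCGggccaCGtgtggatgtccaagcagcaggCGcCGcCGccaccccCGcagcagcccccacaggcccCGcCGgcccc
SOX10: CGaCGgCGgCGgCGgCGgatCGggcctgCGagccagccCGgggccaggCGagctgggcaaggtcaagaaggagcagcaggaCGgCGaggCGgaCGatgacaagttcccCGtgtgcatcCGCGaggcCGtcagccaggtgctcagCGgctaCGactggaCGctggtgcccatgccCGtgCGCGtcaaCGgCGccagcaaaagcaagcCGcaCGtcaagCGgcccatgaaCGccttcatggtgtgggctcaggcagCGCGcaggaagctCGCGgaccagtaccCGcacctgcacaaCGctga
The stretches carry 11.3 (*SOX30*), 11.02 (*SOX9*) and 12 (*SOX10*) CpG per 100 bp.

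**Figure D4:**
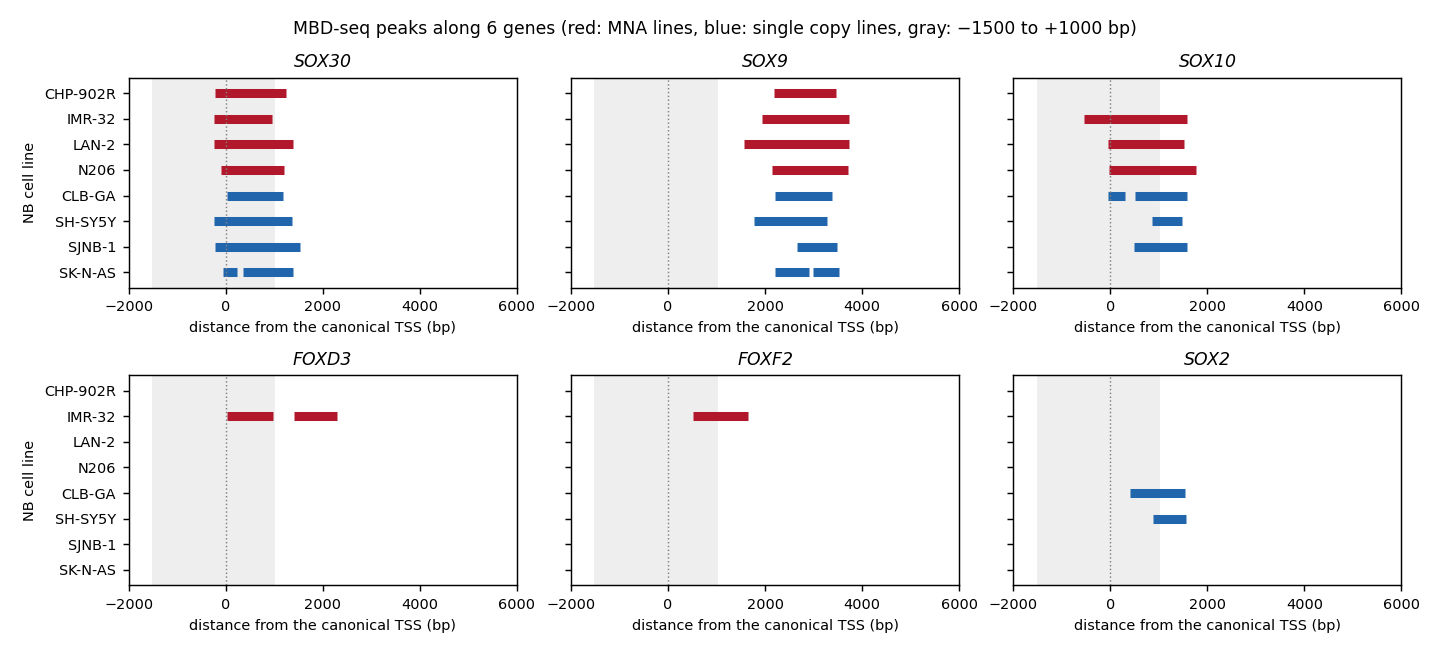
Bars are peaks along 6 genes in each NB cell line (rows), by distance from the canonical TSS in bp (x axis), red in MNA and blue in single copy lines, with the promoter window in gray. *SOX30* peaks lie across or just after the TSS in 8 lines, *SOX9* peaks lie beyond it in 8 lines, *FOXD3* and *FOXF2* have peaks in IMR-32 only, and *SOX2* in CLB-GA and SH-SY5Y only.

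Among the other neural and sympathoadrenal members, *SOX2*, a factor of pluripotency and neural progenitors, had a promoter peak only in CLB-GA and SH-SY5Y, of 601 and 120 bp of promoter, with peak scores of 181 and 67.3 (Fisher's exact p = 0.429 over lines). *SOX4* had only a peak of SK-N-AS at the edge of the promoter, 102 bp of it, and *SOX12* none. *SOX5*, which acts with *SOX9* in cartilage, had promoter peaks in CHP-902R alone, 1044 bp at TSS other than the canonical one. *FOXD1* and *FOXC1* had none, and *FOXC2* a single one of 650 bp in IMR-32. *FOXL1* had promoter peaks in IMR-32 and LAN-2 (695 and 914 bp), and *FOXF1*, its neighbor on chromosome 16, in SH-SY5Y (835 bp).

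*FOXC2*, *FOXF1* and *FOXL1* lie within 200 kb of each other on chromosome 16 and differed in the lines that had a peak. *FOXF2* and *FOXQ1*, within 200 kb of each other on chromosome 6, had promoter peaks in IMR-32 alone, with 483 and 847 bp under a peak. *FOXC1* lies further along the same chromosome, outside that distance (from 1610150, where *FOXF2* ends at 1395838). It had no promoter or gene body peak in any line. *FOXD2* and *FOXE3* are neighbors on chromosome 1, and SK-N-AS had a promoter peak in both. *FOXD2* had 424 bp there and no promoter peak elsewhere. *FOXE3*, a lens factor, had 683 bp in IMR-32, 609 in CLB-GA and 341 in SK-N-AS.

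The SOXF genes, which act in endothelium, had promoter peaks in 1 to 4 lines. *SOX18* had promoter peaks in IMR-32, N206, SJNB-1 and SK-N-AS (986, 420, 1407 and 489 bp), in a window that holds a TSS of *TCEA2*. *SOX7* had them in SH-SY5Y and SK-N-AS (926 and 127 bp). *SOX17* had 825 bp in IMR-32.

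The other genes with a promoter peak in 7 lines were *FOXM1*, *FOXN3* and *FOXP1*. Their promoter windows over 10, 19 and 67 TSS spanned 10413, 25386 and 66565 bp, against a median of 2536.5 bp for the 60 genes. *FOXM1*, which drives genes of mitosis, had 1389 bp in IMR-32, 397 in CHP-902R, 251 in N206 and 937 in LAN-2, and 500 in SH-SY5Y, 0 in SK-N-AS, 283 in CLB-GA and 420 in SJNB-1 of promoter covered. Its means were 744 ± 522 bp in MNA and 301 ± 220 bp in single copy lines (SD, n = 4 each, exact permutation p = 0.257). *FOXP1* had 1579 bp in IMR-32, 843 in CHP-902R, 1041 in N206 and 1532 in LAN-2, and 2186 in SH-SY5Y, 1767 in SK-N-AS, 0 in CLB-GA and 1497 in SJNB-1. Its groups overlapped, with 1249 ± 364 bp in MNA and 1363 ± 952 bp in single copy lines (SD, n = 4 each, exact permutation p = 0.914). *FOXN3* had 1050 bp in IMR-32, 261 in CHP-902R, 391 in N206 and 1567 in LAN-2, and 965 in SH-SY5Y, 0 in SK-N-AS, 832 in CLB-GA and 732 in SJNB-1 (exact permutation p = 0.629). With the canonical TSS alone, *FOXM1*, *FOXP1* and *FOXN3* had a promoter peak in 0 lines, so their promoter peaks lie at other annotated TSS. With the TSS of protein-coding transcripts, *FOXM1* had one in 1 line, *FOXP1* in 6 and *FOXN3* in 7. The *FOXM1* promoter also holds TSS of *RHNO1* and *TULP3*.

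The remaining FOX genes that had a peak in 6 lines were *FOXI1* (ionocytes of kidney and inner ear), *FOXK2*, *FOXN4* (retinal interneurons) and *FOXS1*. *FOXS1* had 0 bp in IMR-32, 895 in CHP-902R, 1149 in N206 and 1048 in LAN-2, and 977 in SH-SY5Y, 1043 in SK-N-AS, 878 in CLB-GA and 0 in SJNB-1. The 6 lines were close to each other, and IMR-32 and SJNB-1 had none. *FOXN4* had 589 bp in IMR-32, 551 in CHP-902R, 0 in N206 and 1603 in LAN-2, and 0 in SH-SY5Y, 1420 in SK-N-AS, 2 in CLB-GA and 1304 in SJNB-1, so N206 and SH-SY5Y had none and CLB-GA only reached the edge. *FOXK2* had 420 bp in IMR-32, 928 in CHP-902R, 0 in N206 and 1081 in LAN-2, and 442 in SH-SY5Y, 0 in SK-N-AS, 1975 in CLB-GA and 1898 in SJNB-1. *FOXI1* had 380 to 1000 bp in its 6 lines and none in IMR-32 and SK-N-AS. With the canonical TSS alone, *FOXN4* had a promoter peak in 0 lines and *FOXK2* in 1.

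Among the SOX genes with the most promoter cover were also *SOX15* and *SOX13*. *SOX15* had 1037 bp in IMR-32, 402 in CHP-902R, 0 in N206 and 0 in LAN-2, and 426 in SH-SY5Y, 0 in SK-N-AS, 1155 in CLB-GA and 383 in SJNB-1, and *SOX13* had 631 bp in IMR-32, 231 in CHP-902R, 495 in N206 and 0 in LAN-2, and 1114 in SH-SY5Y, 187 in SK-N-AS, 0 in CLB-GA and 0 in SJNB-1. For both, each *MYCN* group held lines with and without a peak. *FOXN1*, the thymus factor with a CpG-poor promoter, had 5 lines with 484 to 2168 bp. *FOXJ1*, the factor of motile cilia, had 16 bp in N206 and 809 bp in SH-SY5Y.

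*FOXD4* had a promoter peak of 563 to 759 bp in SH-SY5Y, CLB-GA, N206 and LAN-2. Only 33.4% of its 45 bp windows occur once in GRCh37, the lowest share of the 60 genes, and it has near-identical copies, so its peaks are uncertain. The shares were 82.5% for *FOXO3*, 88.8% for *SOX13*, and at least 90% for 57 of the 60 genes.

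No gene of the 60 had a promoter peak in all 4 MNA lines and in no single copy line, or the reverse. Over all genes 0.203% had the first pattern and 0.104% the second, and for gene body peaks the shares were 0.0988% and 0.0468%, again with none among the 60. The smallest Fisher's exact p of a FOX or SOX promoter was 0.429, reached by *FOXH1*, *FOXI2*, *FOXL1*, *SOX2* and *SOX7*, which had a peak in 2 lines of a group and none of the other. With 4 lines against 4 the smallest p possible is 0.0286. *FOXI2* (CHP-902R and IMR-32, 1746 and 1051 bp) and *FOXL1* were on the MNA side. *FOXH1*, *SOX2* and *SOX7* were on the single copy side. No FOX or SOX gene reached an unadjusted p under 0.05 in the exact permutation test of promoter cover, where 0.894% of all genes did with more cover in MNA and 0.369% with more in single copy lines, and no adjusted p over the 19229 genes was under 0.05 by either exact test (smallest adjusted p = 1).

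The promoter cover of *FOXP4* was 0 bp in IMR-32, 1457 in CHP-902R, 1816 in N206 and 2052 in LAN-2, and 742 in SH-SY5Y, 0 in SK-N-AS, 0 in CLB-GA and 0 in SJNB-1 (exact permutation p = 0.143). Without IMR-32 the MNA mean was 1775 bp against 186 bp and the exact permutation p was 0.0286. *FOXN1* had 975 ± 933 bp in MNA and 255 ± 295 bp in single copy lines (SD, n = 4 each, exact permutation p = 0.171), and without LAN-2 1299 against 255 bp (exact permutation p = 0.0286). These values were the smallest that 3 lines against 4 allow, each from leaving out 1 line, and none of them was adjusted. Each time the line left out was the MNA line with 0 bp, and the test without a line was not run over all genes.

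Gene body peaks were more frequent than promoter peaks, and the share of the 60 genes with one was below that of all genes in each of the 8 lines. IMR-32 had 41 of the 60 (68.3%, against 69% of all genes), N206 26 (43.3% against 66.2%), LAN-2 27 (45.0% against 68.4%) and CHP-902R 30 (50.0% against 69.2%). SK-N-AS had 30 (50.0% against 65.1%), SJNB-1 28 (46.7% against 65.3%), SH-SY5Y 33 (55.0% against 67.7%) and CLB-GA 34 (56.7% against 65.2%). A gene body peak was present in all 8 lines for 14 of the 60 genes (23.3%, against 34.2% of all genes). FOX and SOX genes are short, with a median length of 5652 bp against 27568 bp for all genes, and 39 of the 60 are 10 kb or shorter. In those 39, 20 had a gene body peak in IMR-32 (51.3%, against 38.2% of all genes up to 10 kb) and 8 to 14 in each of the other lines (20.5% to 35.9%, against 29.6% to 34.4%).

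The 9 FOX and SOX genes over 100 kb had a median of 2.70 to 5.66 peaks per 100 kb across the lines, next to 2.85 to 4.93 for the 3506 autosomal genes over 100 kb. *FOXP2*, a factor of speech circuits, had 16 gene body peaks in CHP-902R, 6 in SJNB-1, 4 in LAN-2, 1 each in IMR-32, SK-N-AS and CLB-GA, and none in N206 and SH-SY5Y. Its flanks of 2 Mb on either side had 3.95 peaks per 100 kb in CHP-902R, 2.45 in LAN-2, 1.1 in IMR-32 and 0.3 in N206. The single copy lines had 1.75 in SH-SY5Y, 1.65 in SK-N-AS, 1 in SJNB-1 and 0.975 in CLB-GA. Flanks and body did not rank the lines alike, since SH-SY5Y had more flank peaks than SJNB-1 but none in the body. *SOX6*, a partner of *SOX5*, had no peak in its body in N206 and 4 to 10 in the other lines, and the flanks had 1.12 peaks per 100 kb in N206 and 2.12 to 3.88 elsewhere.

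*SOX5*, the longest member, had 34 gene body peaks in IMR-32, 33 in CHP-902R, 24 in N206 and 34 in LAN-2, and 20 in SK-N-AS, 17 in CLB-GA, 25 in SJNB-1 and 17 in SH-SY5Y. The groups overlapped only through N206 and SJNB-1 (exact permutation p = 0.0571 on the number of peaks, and 0.0571 on the bases covered). The 2 Mb flanks of *SOX5* had 2.225 to 5 peaks per 100 kb in MNA and 2 to 3.6 in single copy lines. *FOXO3* had body cover of 3623 ± 917 bp in MNA and 2103 ± 348 bp in single copy lines (SD, n = 4 each, exact permutation p = 0.0571). Its flanks had 3.85 to 6.45 and 2.75 to 3.925 peaks per 100 kb. Every MNA list was longer than every single copy list, and the part of list length in these differences was not tested. Adjusted over all genes, no body cover test gave a value under 1, and over all genes 2.17% reached an unadjusted p under 0.05 with more cover in MNA and 0.406% with more in single copy lines, against 0 of the 60. *FOXJ3* had 18 peaks in LAN-2 and 2 to 10 elsewhere. LAN-2 had 72.0 peaks per Mb on chromosome 1, where *FOXJ3* lies, against 27.4 to 47.2 in the others.

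**Figure D5:**
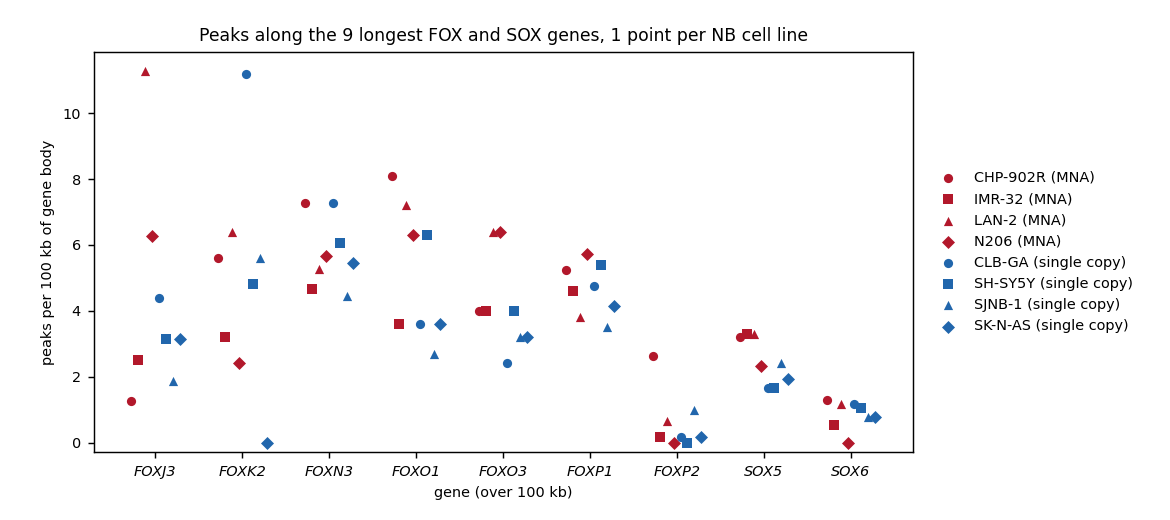
Points give the number of peaks per 100 kb of gene body (y axis) for the 9 FOX and SOX genes over 100 kb (x axis), 1 point for each NB cell line, red for MNA and blue for single copy. *FOXJ3* in LAN-2 and *FOXK2* in CLB-GA lie highest, and *SOX6* in N206, *FOXP2* in N206 and SH-SY5Y and *FOXK2* in SK-N-AS are at 0.

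For comparison, promoter peaks were counted over 27 other regulators of the neural crest and sympathoadrenal lineage and over 22 partner genes of SOX and FOX factors, lists that share no gene with the 60. Of the 27, 7 to 12 had a promoter peak in a line (25.9% to 44.4%, against 34.4% to 42.5% of all genes), with 12 in IMR-32 and also 12 in LAN-2. *GATA3*, *HAND1*, *MSX1* and *PHOX2A* had promoter peaks in 3 MNA lines and 1 single copy line each. *TWIST1* and *SNAI1* had them in all 4 MNA lines and 2 single copy lines each (Fisher's exact p = 0.429 each). *ERBB3* (2 MNA and 4 single copy lines, the same p), *ETS1* (1 and 3) and *TH* (0 and 2) were among those that leaned the other way. *ISL1*, *SNAI2*, *HAND2* and *DBH* were among those with none. Of the 22 partner genes, 8 to 14 had a promoter peak (36.4% to 63.6%, against the same 34.4% to 42.5%), with 14 in IMR-32. The share was above that of all genes in 7 of the 8 lines and below it in N206. *SMAD3* and *POU5F1* had one in all 8 lines. *SMAD2* had one in 3 MNA lines and no single copy line (Fisher's exact p = 0.143). No gene of either list had an unadjusted p under 0.05 in the exact tests.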

How the data were processed

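The labels name Bowtie 0.12.7 for mapping and MACS for peak calling, on GRCh37. The deposited lists give each peak's position and the authors' score in column 5, from the MACS p-value of the peak, and the smallest score, 50, matches a p-value of 1e-05. Peaks were called per line, not on pooled lines. Neither an input control nor the options of MACS are given in the sources used here. The lists hold no counts, so the depth of each line is not in them and limits what an absent peak can show. Libraries were amplified by PCR and 1 library was made per line.

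Each peak list was overlapped with GENCODE release 44 TSS and gene bodies in Python 3.11.15 with numpy 2.4.6 and scipy 1.17.1, and no peak lay past the end of a GRCh37 chromosome. A gene or TSS window was positive when a peak overlapped it by 1 bp. The CpG class used the promoter window of the canonical TSS only. It was CpG-rich when a stretch of 500 bp there had at least 55% GC and an observed to expected CpG ratio above 0.75, and intermediate above 0.48. Groups followed the labels' *MYCN* status. Fisher's exact test was run on lines with a peak, and a two-sided exact permutation test on covered bp, for all 19229 genes, with Benjamini-Hochberg adjustment over all of them. Both were tested on simulated data with planted differences. Gene lists and the 60 genes were chosen with earlier results of these data known. The rule for genes given with values named those that separate the *MYCN* groups or have a promoter peak in at least 3 lines of one group and none of the other, those with a promoter peak in 7 or 8 lines, the 5 FOX and 5 SOX genes with the largest median promoter cover, 23 neural crest, neural and sympathoadrenal members, and genes with no peak. Values of further genes were chosen after they were seen. The uniqueness of 45 bp windows was computed with numba 0.67.0, and figures with matplotlib 3.10.9. Alternatives were a score of at least 100, equal list length, the peak midpoint, an overlap of 200 bp, other windows and TSS sets, and each line left out. The IMR-32 counts, the other lines' highest count and the genes found in IMR-32 only were added as results after IMR-32 was seen to have the most. Results for a few items are not reported here, though counts over the 60 genes and over the lists include them.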

Additional observations from a re-analysis of the deposited data

Results flagged for a closer look

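Of 52 groups examined for a line that stands apart, 10 were flagged, and chance flags about 1 in 20 groups. Many of the groups share genes and libraries, so their flags are not independent and their number cannot be set against that rate. IMR-32 was the highest of the MNA lines in 5 of the 10. It had 32 genes with a promoter peak against 15, 16 and 17 in the other MNA lines, and 24 of the FOX genes against 11, 13 and 13. Among genes with a CpG-rich promoter it had 29 with a promoter peak against 11, 13 and 14, and 37 with a gene body peak against 23, 21 and 22. Among genes of 1 exon it had 10 with a gene body peak against 2, 3 and 2.

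SJNB-1 was the lowest of the single copy lines for genes of 1 exon, with 0 promoter peaks against 4, 4 and 4, and 0 gene body peaks against 6, 5 and 5. SK-N-AS had 25 genes of several exons with a gene body peak against 28, 28 and 28. SJNB-1 had 6 peaks in *FOXP2* against 1, 0 and 1, and N206 had 24 in *SOX5* against 33, 34 and 34.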

How the results depend on the processing

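The lists give no depth, so absence of a peak and the excess of IMR-32 are limited by the depth of each line, which they do not hold, and by the number of lines. With a score of at least 100, the mean number of the 60 genes with a promoter peak per line fell from 18.75 to 5.125, the mean for gene bodies from 31.125 to 13.875, the IMR-32 count from 32 to 11 and the highest other line from 21 to 8. With the canonical TSS the promoter mean was 12.125, and with a window of −500 to +500 bp the highest other line had 13. IMR-32 had the most genes in each alternative to the peaks, windows and TSS sets. The genes found in IMR-32 only numbered 8 to 13. Of the 11, 5 were among the 9 found with a score of at least 100, 10 among the 11 with the canonical TSS, and with the other peak, window and TSS choices each gene found was one of the 11. With the canonical TSS the share of the 60 genes moved above that of all genes in N206, SK-N-AS, SH-SY5Y and CLB-GA, and with a score of at least 100 in N206 and SK-N-AS. For single genes, 26 of the values moved. Those for the number of lines fell to 3 for *SOX10*, 2 for *FOXP1*, 1 for *FOXN3* and 0 for *FOXM1*, *SOX13* and *SOX18* with a score of at least 100. Promoter cover passed an unadjusted exact permutation p under 0.05 in 0 to 1 genes when a line was left out. These were *SOX10* without CHP-902R, *FOXP4* without IMR-32 and *FOXN1* without LAN-2, all at the smallest p that 3 lines against 4 allow. The line left out was each time the MNA line with 0 bp, and the share of all genes that pass in this way was not computed. Leaving out IMR-32 gave a promoter mean of 16.8571. The remaining 106 values of these results stayed within the bounds set. The MNA mean of genes with a promoter peak was above the single copy mean of 17.5 with IMR-32 (20) and below it without (16). No paired analysis was possible because the replicate numbers name lines that have no counterpart in the other group.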
